A study of Mus musculus with 6 samples.

Results

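Translation initiation factors bring the ribosome, the initiator tRNA and the mRNA together before protein synthesis starts. Genes were taken as members by symbol: names beginning Eif1 to Eif6, without the eIF2 kinases (Eif2ak) and without pseudogenes numbered with -ps. Of 33157 rows in the count table, 63 were members, and 49 of these had enough reads to be tested among 13483 genes in all. The symbols alone decided which genes were members, but the family itself was chosen with earlier results of these data known.

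As background, eIF2 bound to GTP carries the initiator tRNA to the small ribosomal subunit, and eIF2B recharges eIF2 with GTP. The cap-binding factor eIF4E, the scaffold eIF4G and the helicase eIF4A form eIF4F, which recruits the mRNA, while the large eIF3 complex holds the parts together. Growth factors such as insulin-like growth factor 1 (IGF-1) are known to act on this machinery mainly through phosphorylation, by way of mTORC1 and the 4E-binding proteins that hold eIF4E back. RNA counts do not measure phosphorylation or protein.

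Group 3 innate lymphoid cells (ILC3s), gut lymphocytes that defend the mucosal barrier, came from wild-type mouse small intestine and were sorted as lineage-negative, CD127+, KLRG1- cells with dim CD45 and high CD90.2. They were kept in complete RPMI medium for 4 h with recombinant mouse interferon-γ (IFN-γ) at 20 ng/mL. The control group received IFN-γ alone, and the IGF-1 group received IFN-γ and IGF-1 at 200 ng/mL, with 3 libraries each. Every difference below is therefore between cultures that had all received IFN-γ, which the design text states and the sample titles do not. Strain, age and number of mice are not given in the sources used. It is also not stated whether replicates were separate cultures or animals, and the p-values below therefore rest on a spread between libraries that may be technical.

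Total counts ran from 32573713 to 39206449 per library, and members took 1.08% to 1.23% of them. All 10 listed ILC3 markers were detected, and their summed level was 4945 to 5349 CPM in the control and 5498 to 5991 CPM in the IGF-1 libraries. The plasma cell gene Jchain had 18629 counts in control replicate 3 and 4 to 7 in each other library, so that library stood apart in this marker. The list of natural killer (NK) and ILC1 markers summed to 109 to 142 CPM in the control and 213 to 239 CPM in the IGF-1 libraries, with the defining NK genes Eomes and Klra8 at 0 counts in all 6 libraries. Of its 10 genes 8 were tested and 2, the receptor Ncr1 and the granule protein Nkg7, were called higher. These 2 averaged 28.2 and 31.2 CPM in the control and 71.5 and 89.3 CPM in the IGF-1 libraries. Of the 8 tested, 6 had positive and 2 negative log2 fold changes, the latter Klrb1c (-0.32) and Gzma (-0.35). Prf1 was higher without overlap but not called, and the groups overlapped in Klrb1c, Gzma, Tbx21, Gzmb and Klre1. Epithelial markers, of which 4 of 8 were tested and Krt19 was at 0 counts in all libraries, summed to 33.3 to 48.5 CPM in the control and 14.8 to 22.1 CPM in the IGF-1 libraries, nearly all of it from Epcam (38.6 and 17.6 CPM on average). All 4 tested epithelial markers had negative log2 fold changes, and Epcam was called lower (adjusted p = 0.0442 by edgeR). Krt18, Vil1 and Krt8 averaged at most 0.989 CPM in either group, and their groups overlapped, so their signs say little. The mitochondrially encoded mRNAs summed to 15793 to 20445 CPM in the control and 19694 to 23282 CPM in the IGF-1 libraries, and heat shock genes to 2557 to 2754 and 2738 to 3465 CPM, both with overlapping groups. The part of these markers in the results below was not tested. In bulk RNA, fewer cells of a type and less RNA per cell cannot be told apart.

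The promoters of the members with the smallest p-values are shown, so that genes with higher and with lower means can be read side by side. Of 10 members with an unadjusted p under 0.05, 6 had an entry that could be printed: Eif2s1, Eif4e, Eif2s2, Eif1ax, Eif4h and Eif3l. The 150 bases before the annotated start are given 5′ to 3′ on the gene's strand, from RefSeq on GRCm38.p6, which is an earlier build than the GRCm39 used for the counts. Capitals mark the E-box CACGTG, the site of MYC and related factors, and the letters GCNTGCGC on either strand, the core of the site of the factor NRF1 (N is any base). For Eif4e the entry shown is 1 of 2 starts in the table, and the 150 bases before the other start hold neither motif. The first 4 genes had higher means with IGF-1.
Eif2s1, chr12:78861922-78862071, + strand: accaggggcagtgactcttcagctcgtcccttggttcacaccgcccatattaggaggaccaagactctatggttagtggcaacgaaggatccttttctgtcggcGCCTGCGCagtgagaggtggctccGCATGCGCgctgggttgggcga
Eif4e, chr3:138527118-138527267, + strand: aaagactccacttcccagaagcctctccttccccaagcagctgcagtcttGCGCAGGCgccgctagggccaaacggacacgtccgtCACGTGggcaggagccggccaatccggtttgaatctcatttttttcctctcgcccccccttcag
Eif2s2, chr2:154892907-154893056, - strand: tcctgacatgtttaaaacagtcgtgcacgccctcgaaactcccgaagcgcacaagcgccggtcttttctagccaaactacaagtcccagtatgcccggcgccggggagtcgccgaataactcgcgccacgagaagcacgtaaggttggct
Eif1ax, chrX:159372028-159372177, + strand: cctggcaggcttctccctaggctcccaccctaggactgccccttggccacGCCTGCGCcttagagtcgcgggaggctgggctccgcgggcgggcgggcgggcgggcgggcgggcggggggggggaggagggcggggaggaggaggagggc
The last 2 genes, Eif4h and Eif3l, had lower means with IGF-1.
Eif4h, chr5:134639410-134639559, - strand: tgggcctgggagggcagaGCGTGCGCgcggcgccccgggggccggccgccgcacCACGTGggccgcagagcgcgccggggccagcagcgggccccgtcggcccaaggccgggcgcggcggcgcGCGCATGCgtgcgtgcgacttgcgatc
Eif3l, chr15:79075073-79075222, + strand: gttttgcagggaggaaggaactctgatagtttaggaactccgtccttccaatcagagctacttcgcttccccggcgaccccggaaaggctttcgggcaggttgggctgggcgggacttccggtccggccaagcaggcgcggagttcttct

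The marked letters stood both in genes with higher and in genes with lower means. Eif2s1 held GCNTGCGC at 2 places and no E-box, Eif4h and the start shown of Eif4e held both motifs, Eif1ax held GCNTGCGC once, and Eif2s2 and Eif3l held neither in these 150 bases. Over the full 250 bases before the start, with a gene counted when any of its starts held the letters, an E-box stood in 9 of the 39 tested members with an entry (23.1%), against 9.63% of the 9993 tested genes with one and 6.86% of all 27025 genes. GCNTGCGC stood in 11 of the 39 (28.2%), against 18.4% of the tested genes and 9.38% of all genes. The median log2 fold change of IGF-1 over control was 0.06 for members with an E-box and 0.06 for those without, and likewise 0.06 and 0.06 for GCNTGCGC. These letters are a description of the windows and show no binding. Both motifs were chosen after the sequences were seen.

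With IGF-1, no member passed the test over all genes. By edgeR's quasi-likelihood test, with an adjusted p of 0.05 as the threshold, 0 of 49 members were called in either direction. Over all genes tested 0.230% were called higher and 0.267% lower, 0.497% in all. DESeq2 on the same counts called 4 members, Eif2s1, Eif4g2 and Eif4e higher and Eif4e3 lower, where 4.20% of all genes with an adjusted p were called. By limma-voom Eif2s1 was the single member called, where 0.712% of all genes were called. At an unadjusted p under 0.05, 7 members were on the higher and 3 on the lower side, 10 of 49 in all (20.4%). Over all genes 5.58% were on the higher and 6.24% on the lower side, 11.8% in all. In 16 members (32.7%) the groups did not overlap, that is, all 3 IGF-1 libraries were above or all 3 below every control library. Of these 12 were higher, against 8.81% of all genes, and 4 lower, against 9.17%, or 18.0% of all genes in either direction. These shares over all genes were not matched to the members' level of expression, and all genes tested include many with low counts. Among genes with at least 10 CPM in 3 libraries, 1378 of 8625 had an unadjusted p under 0.05 by edgeR. Of the 47 members among them, 7 were on the higher and 4 on the lower side. Log2 fold changes were positive in 35 of 49 members (71.4%), against 48.7% of all genes, with a median of 0.08 against -0.01 over all genes. The 13 mitochondrially encoded mRNAs had 12 positive values and a median of 0.16, with 0 called, and their part in the members' values was not tested. Leaving out the first control or the first IGF-1 library each moved the members' median to 0.13. All 49 tested members were above the filter's level in every library, so none entered through 1 group only.

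**Figure D1:**
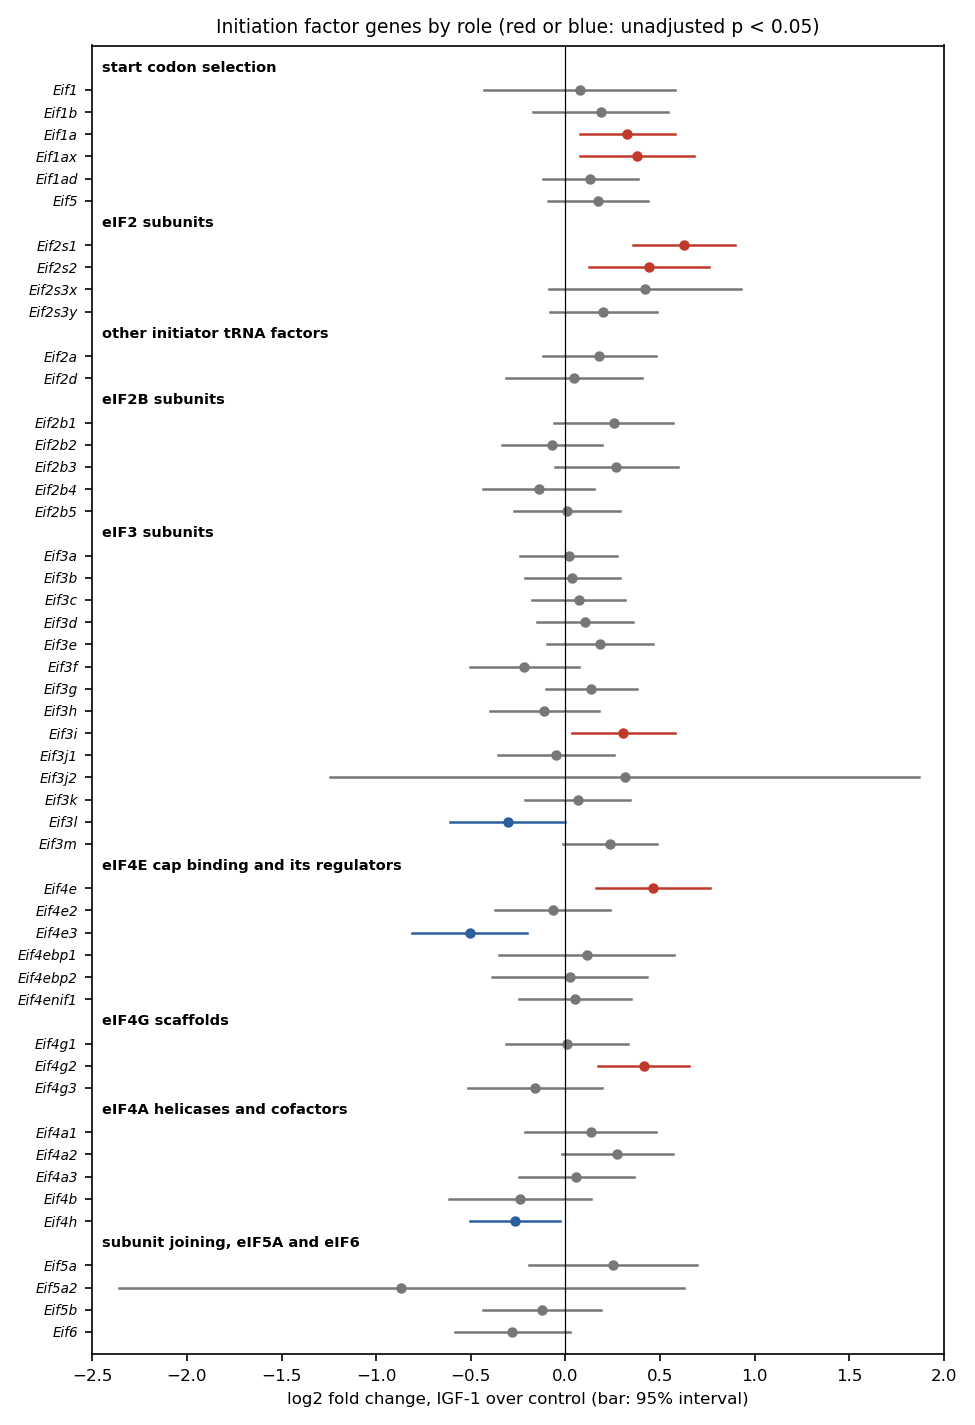
Log2 fold change of IGF-1 over control (x axis) for each of the 49 tested initiation factor genes (y axis), grouped by role, with bars for the 95% interval. Red and blue points are the 7 higher and 3 lower members with an unadjusted p under 0.05; the 4 eIF2 subunit genes all lie to the right of 0.

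**Figure D2:**
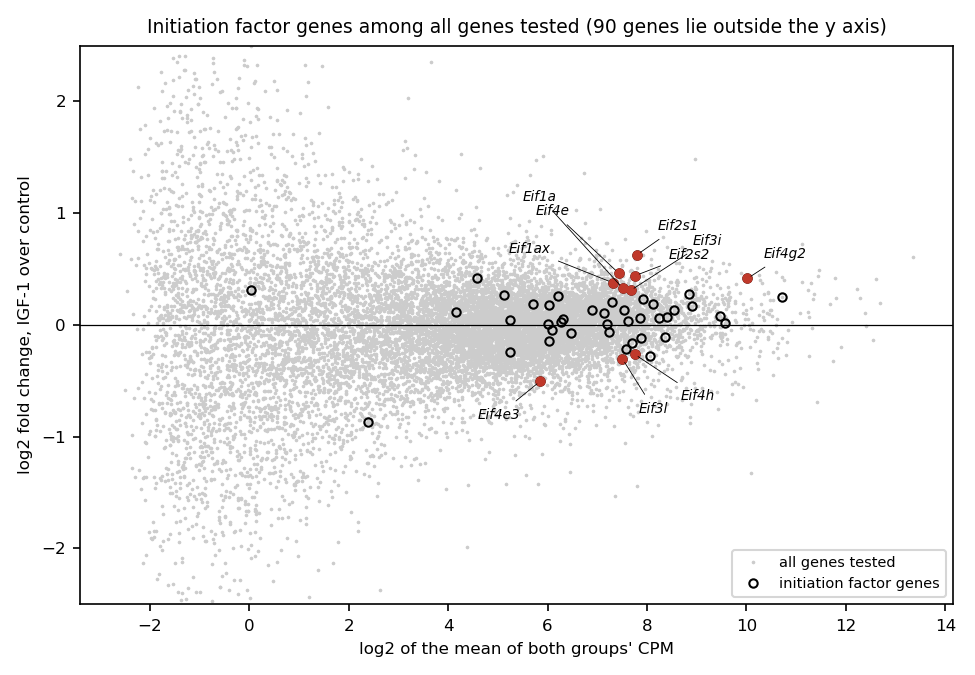
Log2 fold change (y axis) against the log2 of the mean CPM of both groups (x axis) for all genes tested (grey), with the initiation factor genes as circles and the 10 members with an unadjusted p under 0.05 filled in red and named. Eif2s1 (0.63) is the highest named member and Eif4e3 (-0.51) the lowest; 90 of the 13483 genes lie outside the y axis, which ends at 2.5 either way.

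The genes of the 3 eIF2 subunits had the highest median log2 fold change of the roles described here, 0.43 over 4 genes. Values for single genes are TMM-normalised, that is, read counts divided by library size (CPM) after scaling for library composition. Eif2s1, which encodes the α subunit that stress kinases phosphorylate, stood at 161, 189 and 176 CPM in control replicates 1 to 3 and at 261, 292 and 257 CPM in IGF-1 replicates 1 to 3. Every IGF-1 library was above every control library, and the gap between the groups was wider than the range within either. The means were 175 ± 14.1 and 270 ± 19.2 CPM (SD, n = 3 each), a log2 fold change of 0.63 (95% interval 0.36 to 0.89) and a fold of 1.54. Its adjusted p by edgeR was 0.0635, just short of the threshold. The gene passed with DESeq2 (adjusted p = 0.000115), limma-voom (0.0346), no filter on low counts (0.00212, where 1.84% of genes were called) and a filter of 10 CPM in 3 libraries (0.0183, where 2.06% were called). Over all 14 alternatives the adjusted p ran from 0.000115 to 0.281, the highest without control replicate 3. The log2 fold change itself stayed between 0.57 and 0.68.

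Eif2s2 encodes the β subunit, which contacts eIF2B and eIF5. It stood at 162, 203 and 189 CPM in the control libraries and at 270, 271 and 210 CPM in the IGF-1 libraries, so the groups did not overlap, although IGF-1 replicate 3 was only slightly above control replicate 2. The log2 fold change was 0.44 (95% interval 0.12 to 0.76, adjusted p = 0.243). The γ subunit, which binds GTP and the tRNA, has an X-linked gene, Eif2s3x, and a Y-linked gene, Eif2s3y. Eif2s3x was at 21.8, 23.9 and 15.7 CPM in the control and 20.3, 31.6 and 30.4 CPM in the IGF-1 libraries (log2 fold change 0.42, 95% interval -0.09 to 0.93, adjusted p = 0.521). Eif2s3y was at 128, 166 and 147 CPM in the control and 164, 175 and 167 CPM in the IGF-1 libraries (0.20, interval -0.08 to 0.48, adjusted p = 0.596). In both γ genes the groups overlapped by 1 library. The X and Y copies are closely related, so how reads were shared between them is uncertain. The Y-linked copy had reads in all 6 libraries, with at least 4767 counts in each.

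The recharging factor eIF2B showed no common direction. Its 5 subunit genes, Eif2b1 to Eif2b5, had log2 fold changes from -0.14 to 0.27 with a median of 0.01. Eif2b5, the catalytic ε subunit, was at 63.1, 63.0 and 67.5 CPM in the control and 60.8, 71.6 and 62.4 CPM in the IGF-1 libraries. The groups lay over each other (log2 fold change 0.01, 95% interval -0.27 to 0.29). Eif2b3 (γ) was the single eIF2B gene whose groups did not overlap, with 29.3, 32.7 and 33.1 CPM in the control and 39.2, 34.7 and 40.7 CPM in the IGF-1 libraries (0.27, interval -0.06 to 0.59, adjusted p = 0.521). Eif2b1 (α) was at 0.26 with overlapping groups, Eif2b2 (β) at -0.07 and Eif2b4 (δ) at -0.14. Eif2a and Eif2d, 2 factors that can bring the initiator tRNA without eIF2, were at 0.18 (interval -0.12 to 0.48) and 0.05 (-0.32 to 0.41), both with overlapping groups.

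All 6 genes of start codon selection had positive log2 fold changes, from 0.08 to 0.38. Factor eIF1A, which helps the small subunit scan and settle on the start codon, has 2 genes in the mouse, Eif1a and the X-linked Eif1ax. Eif1a was at 159, 169 and 156 CPM in the control and 193, 211 and 205 CPM in the IGF-1 libraries (log2 fold change 0.33, 95% interval 0.08 to 0.58, adjusted p = 0.272). Eif1ax was at 143, 147 and 124 CPM in the control and 175, 204 and 157 CPM in the IGF-1 libraries (0.38, interval 0.08 to 0.68, adjusted p = 0.301). Both genes had groups that did not overlap, and as near copies they may share reads. Eif1, whose product guards against starting at the wrong codon, varied far more between replicates than between groups. It was at 935, 519 and 601 CPM in the control and 598, 932 and 635 CPM in the IGF-1 libraries, with control replicate 1 and IGF-1 replicate 2 high. Its log2 fold change of 0.08 ranged from -0.16 to 0.37 when single libraries were left out. The related Eif1b was also highest in IGF-1 replicate 2 (63.8 CPM) and control replicate 1 (55.1 CPM), with 40.6 to 51.4 CPM in the rest. Eif5, the GTPase activator of eIF2, was at 480, 438 and 443 CPM in the control and 524, 452 and 557 CPM in the IGF-1 libraries (0.17, interval -0.09 to 0.43). Its groups overlapped through IGF-1 replicate 2 alone. Eif1ad, which encodes a protein with an eIF1A-like domain, was at 107 to 119 CPM in the control and 120 to 129 CPM in the IGF-1 libraries, a small gap without overlap (0.13, interval -0.12 to 0.38).

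**Figure D3:**
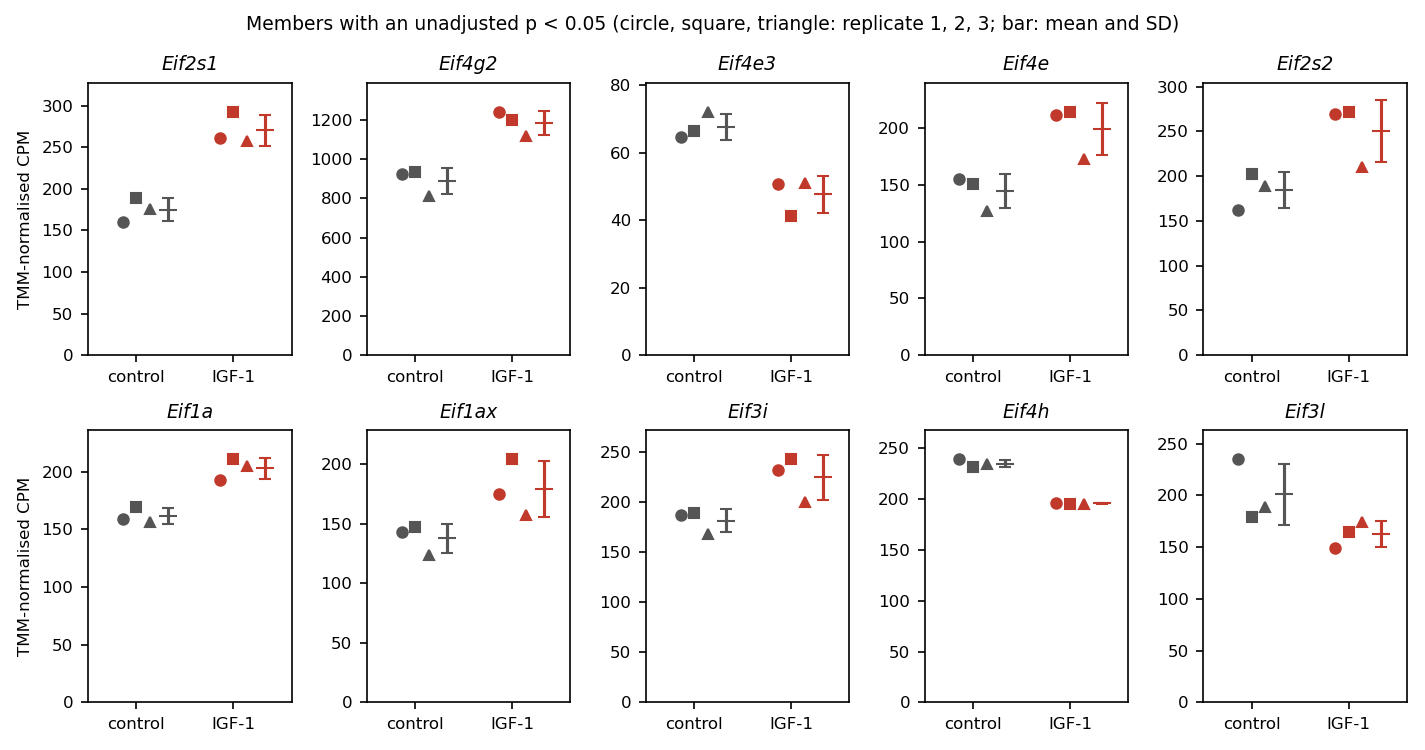
TMM-normalised CPM (y axis, from 0) of the 10 members with an unadjusted p under 0.05 in the 3 control and 3 IGF-1 libraries, with the mean and SD beside the points. In all 10 panels the 3 points of one group lie on one side of the other group; Eif2s1 has the smallest p-value (175 and 270 CPM on average).

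The 3 eIF4E paralogs had log2 fold changes of both signs. Eif4e encodes the main cap-binding protein and stood at 156, 151 and 127 CPM in the control and 211, 214 and 173 CPM in the IGF-1 libraries. All IGF-1 libraries were above all controls, by a log2 fold change of 0.46 (95% interval 0.16 to 0.77, adjusted p = 0.197 by edgeR, and 0.0394 to 0.611 over the alternatives). Eif4e3, a divergent cap-binding paralog, went the other way, with 64.7, 66.4 and 72.1 CPM in the control and 50.8, 41.4 and 50.9 CPM in the IGF-1 libraries. Its log2 fold change was -0.51 (95% interval -0.81 to -0.20, adjusted p = 0.174 by edgeR, and 0.0423 to 0.553 over the alternatives), and the groups did not overlap. Eif4e2, which encodes a repressive cap-binding paralog, lay at -0.07 (interval -0.37 to 0.24) with overlapping groups. The 4E-binding proteins block eIF4E until they are phosphorylated. Eif4ebp1 was at 21.3, 14.5 and 15.8 CPM in the control and 19.3, 19.7 and 16.9 CPM in the IGF-1 libraries (0.11, interval -0.35 to 0.58). Eif4ebp2 was at 94.1, 55.2 and 80.2 CPM in the control and 70.3, 78.0 and 84.8 CPM in the IGF-1 libraries (0.02, interval -0.39 to 0.43), and its sign changed with library size scaling and when some single libraries were left out. In both genes the controls spanned the IGF-1 libraries, and the wide intervals leave room for a change of either sign. Eif4enif1, which encodes a transporter of eIF4E, was at 0.05 (interval -0.24 to 0.35).

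Ratios within a library do not depend on how libraries are scaled to each other. The log2 ratio of Eif4e to Eif4e3 was 1.27, 1.19 and 0.82 in the control and 2.06, 2.37 and 1.76 in the IGF-1 libraries, a difference of 0.97 between the means. That of Eif2s1 to the eIF2B gene Eif2b5 was 1.35, 1.58 and 1.38 against 2.10, 2.03 and 2.05, a difference of 0.62. Both pairs separated the groups without overlap, and an exact two-sided permutation test gave p = 0.1 for each, the smallest that 3 libraries against 3 allow. For Eif4e over Eif4e3 this outcome was fixed in advance, because Eif4e was already higher and Eif4e3 lower without overlap. Eif2s1 was also higher without overlap, while Eif2b5 hardly differed. The separation of these ratios therefore adds no evidence beyond the values of the single genes. The ratios of Eif4e to Eif4ebp1 (difference 0.33), Eif4g2 to Eif4g1 (0.40) and Eif2s1 to Eif2s2 (0.19) had an exact permutation p of 0.2 each. Adjusted over these 5 ratios, which were chosen after the values were seen, the p was 0.2 for every pair.

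**Figure D4:**
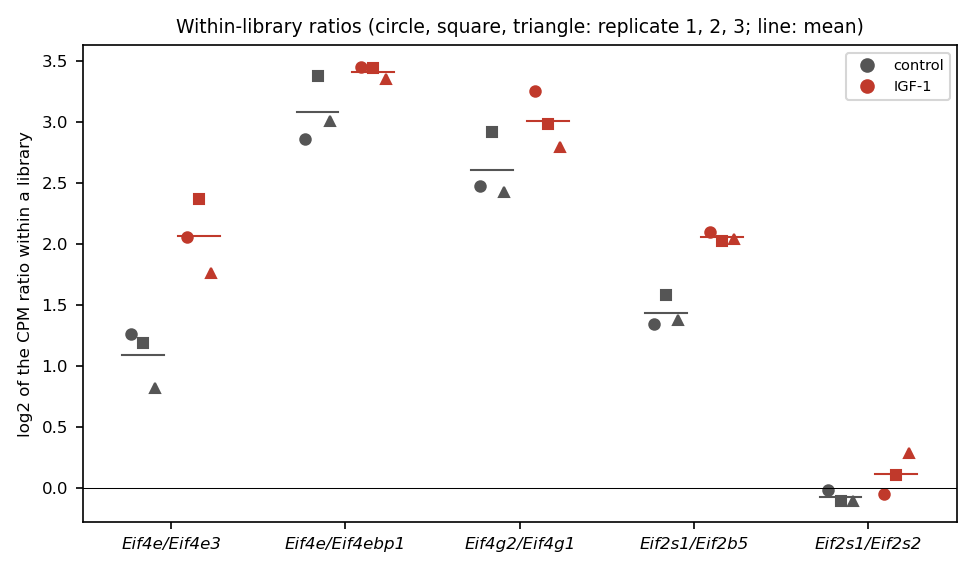
Log2 ratio of the CPM of 2 member genes within each library (y axis) for 5 pairs (x axis), with control libraries in grey, IGF-1 libraries in red and lines at the group means. The groups separate for Eif4e over Eif4e3 (means 1.09 and 2.06) and Eif2s1 over Eif2b5 (means 1.44 and 2.06) and overlap for the other 3 pairs; heights are not comparable between pairs because gene lengths differ.

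Of the 3 eIF4G scaffold genes, Eif4g2 had groups that did not overlap. It encodes DAP5, a scaffold without the eIF4E-binding part that supports cap-independent initiation. Eif4g2 was at 925, 932 and 813 CPM in the control and 1240, 1199 and 1120 CPM in the IGF-1 libraries, with all IGF-1 libraries above all controls. The log2 fold change was 0.41 (95% interval 0.17 to 0.65, adjusted p = 0.155 by edgeR, and 0.0160 to 0.572 over the alternatives). Eif4g1, the main scaffold, was at 166, 123 and 151 CPM in the control and 130, 151 and 161 CPM in the IGF-1 libraries, with a log2 fold change of 0.01 (interval -0.32 to 0.33). Its sign changed with library size scaling, with the 10 CPM filter and when some single libraries were left out. Eif4g3 was at -0.16 (interval -0.51 to 0.19), and both of these had overlapping groups.

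The helicase genes and their cofactors went both ways. Eif4a2 was at 351, 456 and 444 CPM in the control and 511, 464 and 538 CPM in the IGF-1 libraries (log2 fold change 0.28, 95% interval -0.02 to 0.57, adjusted p = 0.455), without overlap, and 0.17 when control replicate 1 was left out. Its paralog Eif4a1 was at 191, 157 and 183 CPM in the control and 176, 239 and 168 CPM in the IGF-1 libraries (0.13, interval -0.21 to 0.48), where IGF-1 replicate 2 alone was above the controls. Eif4a3, the helicase of the exon junction complex, was at 255, 206 and 217 CPM in the control and 205, 261 and 241 CPM in the IGF-1 libraries (0.06, interval -0.24 to 0.36). The 2 cofactors that stimulate eIF4A had negative values. Eif4h was at 239, 231 and 234 CPM in the control and 196, 195 and 195 CPM in the IGF-1 libraries, the tightest replicates of any member with an unadjusted p under 0.05. The groups were far apart for that spread, at 235 ± 3.82 and 196 ± 0.648 CPM (SD, n = 3 each). The model, which draws each gene's spread toward that of other genes, gave a log2 fold change of -0.26 (interval -0.50 to -0.03, adjusted p = 0.361). Eif4b was at 48.9, 33.1 and 40.2 CPM in the control and 33.4, 33.3 and 36.8 CPM in the IGF-1 libraries (-0.24, interval -0.62 to 0.14), with control replicate 1 high and the groups overlapping, and lay at -0.09 when that library was left out.

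The eIF3 complex, the largest initiation factor, had genes on both sides of 0. Its 14 tested genes had a median of 0.07, with 10 positive and 4 negative, and 5 (35.7%) had groups that did not overlap, against 18.0% of all genes. Eif3a, the largest core subunit, was at 717, 780 and 761 CPM in the control and 723, 708 and 856 CPM in the IGF-1 libraries (log2 fold change 0.02, 95% interval -0.24 to 0.27), and its sign changed with library size scaling and when some single libraries were left out. Eif3b and Eif3c, the other core subunits with Eif3a, were at 0.04 and 0.07, again with overlapping groups. Eif3i, a WD-repeat subunit, was at 188, 189 and 168 CPM in the control and 232, 243 and 200 CPM in the IGF-1 libraries (0.31, interval 0.03 to 0.58, adjusted p = 0.358). Its usual partner Eif3g had a smaller gap, 340 to 373 CPM in the control and 375 to 405 CPM in the IGF-1 libraries (0.14, interval -0.10 to 0.38). Eif3m was at 214, 225 and 232 CPM in the control and 256, 282 and 252 CPM in the IGF-1 libraries (0.24, interval -0.01 to 0.49, adjusted p = 0.455). These 3 genes had groups that did not overlap.

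Lower means in eIF3 came from Eif3l, Eif3f, Eif3h and Eif3j1. Eif3l was at 235, 179 and 189 CPM in the control and 150, 164 and 174 CPM in the IGF-1 libraries (log2 fold change -0.31, 95% interval -0.61 to -0.0018, adjusted p = 0.419). Control replicate 1 was well above the rest, the groups did not overlap, and the log2 fold change was -0.18 when that library was left out. Eif3f, a subunit with a deubiquitinase-like MPN domain, was at 201, 217 and 199 CPM in the control and 188, 193 and 150 CPM in the IGF-1 libraries (-0.22, interval -0.51 to 0.07), also without overlap, and at -0.11 when IGF-1 replicate 3 was left out. Eif3h, its MPN partner, was at -0.11 and Eif3j1, a loosely bound subunit, at -0.05, both with overlapping groups. Eif3d, Eif3e and Eif3k lay between 0.06 and 0.18. Eif3j2, a near copy of Eif3j1, had at most 1.31 CPM in any library and an interval from -1.24 to 1.87.

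The late-acting factors had mixed values and wide spreads. Eif5a, which carries the unusual amino acid hypusine and helps ribosomes over difficult stretches, was at 2084, 1132 and 1409 CPM in the control and 1608, 2125 and 1771 CPM in the IGF-1 libraries. Control replicate 1 and IGF-1 replicate 2 were high, as for Eif1, and the groups overlapped (log2 fold change 0.25, 95% interval -0.19 to 0.70). For Eif5a the value was 0.53 when control replicate 1 was left out, 0.07 when control replicate 2 was, and 0.13 when IGF-1 replicate 2 was. Its paralog Eif5a2 had 166 to 279 counts in each control and 17 counts in IGF-1 replicate 2, against 168 to 240 in the other IGF-1 libraries, and its interval ran from -2.36 to 0.63. Eif5b, which joins the large subunit, was at 199, 265 and 270 CPM in the control and 224, 213 and 239 CPM in the IGF-1 libraries (-0.12, interval -0.43 to 0.19). Eif6, which keeps the subunits apart until they are needed, was at 324, 257 and 299 CPM in the control and 209, 253 and 263 CPM in the IGF-1 libraries (-0.28, interval -0.58 to 0.02, adjusted p = 0.467). For Eif6 the groups overlapped between control replicate 2 and IGF-1 replicate 3.

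**Figure D5:**
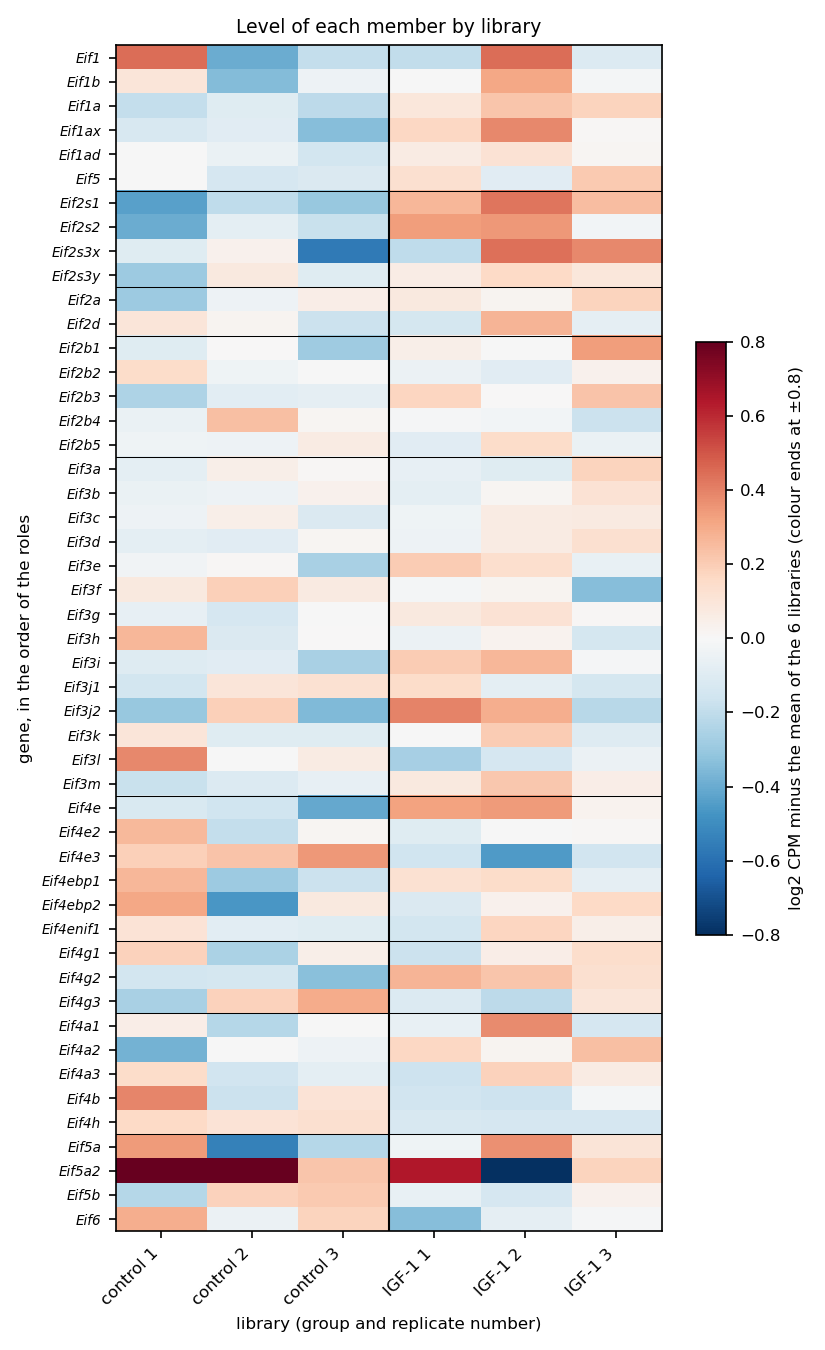
Log2 CPM of each tested member (y axis, in the order of the roles, with lines between roles) in each library (x axis), minus the mean of the 6 libraries; red is above and blue below that mean, and the colour ends at 0.8 either way. Eif2s1, Eif2s2, Eif1a and Eif4g2 follow the groups, whereas Eif1 and Eif5a are high in control replicate 1 and IGF-1 replicate 2.

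The remaining 14 members could not be tested. Of these, 8 had no count in any library, all of them numbered Eif1ad copies. Eif1ad17, Eif1ad6 and Eif1ad7 had 6, 2 and 1 counts over all libraries. Eif4a3l1 had 5, the oocyte cap-binding gene Eif4e1b had 5 and the third 4E-binding protein gene Eif4ebp3 had 3. These levels allow no comparison.

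Other translation genes were read from the same fit as lists by function, 50 genes in all, and 0 were called by edgeR, again against 0.497% of all genes. Their median log2 fold change was 0.0030 with 25 positive and 25 negative, 7 had an unadjusted p under 0.05 (background 11.8%) and 9 had groups that did not overlap (18.0%, the same share as for all genes). Of 12 genes around eIF2 phosphorylation, the kinase gene Eif2ak3 (PERK, which senses stress of the endoplasmic reticulum) stood at 19.1 ± 2.44 and 26.7 ± 3.65 CPM (SD, n = 3 each), a log2 fold change of 0.48 with an adjusted p of 0.334. The interferon-induced kinase gene Eif2ak2 (PKR) stood at 51.0 ± 3.59 and 38.7 ± 7.98 CPM, a log2 fold change of -0.40 with an adjusted p of 0.401. Atf4, the transcription factor translated when eIF2α is phosphorylated, was at 337 and 336 CPM on average, and Eif2ak1 and Eif2ak4 lay at -0.08 and 0.07.

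Of 17 partners of the cap, the poly(A) tail and scanning, Pdcd4, an inhibitor of eIF4A, stood at 185 and 116 CPM on average, with groups that did not overlap and a log2 fold change of -0.67 (adjusted p = 0.138). DESeq2, no filter on low counts and the filter of 10 CPM in 3 libraries each called Pdcd4 lower. Abcf1, an ATPase that binds eIF2, was at -0.38 (95% interval -0.65 to -0.12), and Cyfip2, a relative of the eIF4E-binding protein CYFIP1, was at 0.36 (adjusted p = 0.264). The kinase genes Mknk1 and Mknk2, whose products phosphorylate eIF4E, were at 0.27 and -0.21, with overlapping groups. Of 7 partner factors Bzw1, an eIF5 mimic, was at 337 and 444 CPM on average (0.40, adjusted p = 0.227), and DESeq2 called it higher. The hypusine enzymes Dhps and Dohh were at 0.04 and -0.29, with overlapping groups.

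Elongation, termination and mitochondrial factors completed the lists. Of 7 elongation genes Eef1e1, a component of the tRNA synthetase complex, was at 50.5 and 70.6 CPM on average (log2 fold change 0.48, adjusted p = 0.204), while Eef1a1 and Eef2 were at 0.11 and -0.15. Of 5 termination and recycling genes Gspt1 and Abce1 had the smallest p-values, at 0.25 (adjusted p = 0.557) and 0.17 (adjusted p = 0.620). The mitochondrial initiation factors Mtif2 and Mtif3 were at 0.14 and -0.01.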

How the data were processed

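Per the labels, sorted cells were lysed and SMART-Seq HT libraries prepared, which carry no strand mark. The deposited values were raw counts per gene, made by the authors. The submitters' processing notes name featureCounts 1.5.3, HISAT2 2.2.1, fastp 0.23.2, SAMtools 1.15.1 and the build GRCm39. How reads matching more than 1 gene were handled, the strand setting and the annotation are not given in the sources used. Reads of related genes (Eif1 and Eif1b, Eif1a and Eif1ax, Eif4a1 and Eif4a2, Eif5a and Eif5a2, processed pseudogenes) may therefore have been shared where their sequences match.

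Genes were kept by filterByExpr (minimum count 10, minimum total 15), leaving 13483 of 33157 rows. The groups were compared in edgeR 4.0.16 (R 4.3.3) with TMM scaling and the quasi-likelihood test in a model with group alone. P-values were adjusted over all genes by Benjamini-Hochberg with a threshold of 0.05. "Called" means passing that threshold, and positive fold changes mean higher with IGF-1. DESeq2 1.42.0, limma-voom (limma 3.58.1), other scalings and filters, a replicate block and leaving out each library were alternatives. The procedure was checked on simulated data, but the outcome is not given here. How often changes as small as those of the members would be called is therefore not stated.

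Values per library were given for the 12 members with the smallest p-values and for a fixed set of central members of each role. Other translation genes were named where the unadjusted p was under 0.05, or the 2 smallest p-values in a list without one. The remaining named genes (among them Eif2b3, Eif3f, Atf4, Mknk1, Dohh and Eef2) were added after their values were seen, as were the ratios. The members and lists were chosen with earlier results of these data known. Replicates of a group were compared to check for duplicated libraries. They differed by far more than sampling noise (chi-square per degree of freedom 38.5 to 88.7), so none was taken as a copy of another and all were kept.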

Additional observations from a re-analysis of the deposited data

How the results depend on the processing

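No member was called by edgeR with any library left out, and counts over all genes moved with most settings. Over all genes, 31 were called higher and 36 lower. The counts were 200 and 256 with DESeq2, 171 and 258 with no filter, 63 and 115 with a filter of 10 CPM in 3 libraries, 57 and 87 at an adjusted p of 0.1, and 60 lower with limma-voom. Leaving out 1 library gave 0 to 24 higher and 0 to 31 lower, with 0 higher without control replicate 3, IGF-1 replicate 1 or IGF-1 replicate 2. Members called higher numbered 3 with DESeq2 and 1 each with limma-voom, no filter, the 10 CPM filter and the 0.1 threshold, and 1 was called lower with DESeq2. Of the other translation genes, DESeq2 called 1 higher and 1 lower, and no filter and the 10 CPM filter each called 1 lower. The members' median of 0.08 ran from 0.052 to 0.13 with single libraries left out. The causes were not tested.

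With the replicate number as a block, 3 genes were called higher and 5 lower, and 0 members, with a lowest member adjusted p of 0.124. The labels do not say that numbers pair the libraries. Same-numbered libraries correlated at -0.05, 0.0031 and 0.06 in their deviations, and 1 of 3 control libraries correlated best with its own number.

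Of 49 members, 35 kept their sign under every alternative. With library size scaling Eif2b5 was at -0.026, Eif3a at -0.012, Eif4ebp2 at -0.0030 and Eif4g1 at -0.020, and with the 10 CPM filter Eif2b5 was at -0.0047 and Eif4g1 at -0.0044. With single libraries left out the sign changed in 14 members. Values ran from -0.16 to 0.37 for Eif1, -0.094 to 0.12 for Eif2d, -0.069 to 0.053 for Eif2b5, -0.073 to 0.066 for Eif3a, -0.012 to 0.082 for Eif3b, -0.19 to 0.0040 for Eif3h and -0.14 to 0.011 for Eif3j1. They ran from -0.029 to 0.13 for Eif3k, -0.17 to 0.058 for Eif4e2, -0.17 to 0.20 for Eif4ebp2, -0.026 to 0.13 for Eif4enif1, -0.11 to 0.11 for Eif4g1, -0.044 to 0.23 for Eif4a1 and -0.024 to 0.15 for Eif4a3. Eif3j2 and Eif5a2 were too low for the 10 CPM filter.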
